A study of Mus musculus with 4 samples.

Results

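The genes described here are 10 calcium handling genes of the cardiomyocyte, the muscle cell of the heart: Atp2a2, Ryr2, Pln, Casq2, Slc8a1, Trdn, Jph2, Camk2d, Hrc and S100a1. They were chosen by symbol, each stands for 1 of the 23282 genes measured, and all 10 were measured in every library. The data are mRNA-seq libraries of mouse heart made with the QuantSeq kit, which reads the 3′ end of an mRNA, so that counts do not grow with transcript length. There were 4 libraries, 1 for each group, from male mice of the CDF1 strain, and none of the groups carried a transgene or a deleted allele. The normal control group (E-&T-) neither exercised nor received tumor cells. The normal exercise group (E+&T-) ran on a treadmill at high intensity on alternate days. The cancer control group (E-&T+) received CT26 cells, a mouse colorectal carcinoma line, through the tail vein and did not exercise. The cancer exercise group (E+&T+) had both the cells and the treadmill running. The labels give the age of all 4 groups as postnatal day 28, while the methods give an age of 4 weeks for the purchase of the animals, before the training. All groups were killed by exsanguination under anesthesia. Whether the RNA of a heart library came from 1 mouse or from several is not given for the heart in the sources used here. The study names a representative mouse of each group for the gastrocnemius muscle and call the work on the heart similar. With 1 library per group, no difference below has a replicate check, and no p-value is given.

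In a cardiomyocyte, each action potential opens L-type channels in the T-tubules, and the calcium that enters makes ryanodine receptors release far more calcium from the sarcoplasmic reticulum (SR), which drives contraction. Relaxation follows as the SERCA pump returns calcium to the SR and the sodium-calcium exchanger moves the rest out of the cell. Among the members, Atp2a2 encodes the cardiac SERCA pump and Pln its inhibitor phospholamban. Ryr2 encodes the release channel, Casq2 the SR calcium buffer calsequestrin, Trdn the anchoring protein triadin, Jph2 the junctophilin that ties the SR to the T-tubule, and Hrc a histidine-rich calcium binding protein of the SR lumen. Slc8a1 encodes the exchanger, Camk2d the main cardiac isoform of the kinase CaMKII, and S100a1 a small calcium sensor that binds the pump and the release channel.

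The members lie on 7 mouse chromosomes. On build GRCm38 (mm10), which the submitters' processing notes name, Ryr2 runs from 11553102 to 12106945 on chromosome 13, Hrc from 45335290 to 45338974 on chromosome 7 and Atp2a2 from 122453513 to 122502225 on chromosome 5. Casq2 (102086415 to 102146514), Camk2d (126596302 to 126846326) and S100a1 (90511034 to 90514392) lie on chromosome 3, and Pln (53337667 to 53345987) and Trdn (33080554 to 33476709) on chromosome 10. Slc8a1 runs from 81373105 to 81738377 on chromosome 17 and Jph2 from 163336242 to 163397993 on chromosome 2. In the 1000 bases at the 3′ end of the gene, where QuantSeq reads fall, Pln overlapped Cep85l and the intronic RNA Gm47644 on the opposite strand, the latter not among the genes measured, and Slc8a1 an antisense RNA that is not among the genes measured. Whether the counting used the strand is not given in the sources used here, so reads of such partners cannot be told apart. Cep85l had 97 to 106 reads per library against 38300 to 48908 for Pln.

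Of the 10 members, 8 had an entry in the RefSeq promoter table for GRCm38.p6, which spans 250 bases before to 50 bases after the start of a gene. Printed 5′ to 3′ are the promoters of the 3 members of the release unit that moved furthest in the cancer control heart, among the members only. Capitals mark matches, on either strand, to the E-box CANNTG, to CCAAT, to GATAA or to the binding motif of MEF2, a muscle transcription factor. None of these matches overlapped another in the 3 promoters.
Ryr2 promoter, chr13:12106896-12107195, minus strand: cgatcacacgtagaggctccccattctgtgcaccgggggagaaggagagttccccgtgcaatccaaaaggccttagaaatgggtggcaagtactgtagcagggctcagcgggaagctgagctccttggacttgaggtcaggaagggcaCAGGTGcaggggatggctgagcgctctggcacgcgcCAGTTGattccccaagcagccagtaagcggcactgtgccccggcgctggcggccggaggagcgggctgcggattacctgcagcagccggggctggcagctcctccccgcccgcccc
Hrc promoter, chr7:45335019-45335318, plus strand: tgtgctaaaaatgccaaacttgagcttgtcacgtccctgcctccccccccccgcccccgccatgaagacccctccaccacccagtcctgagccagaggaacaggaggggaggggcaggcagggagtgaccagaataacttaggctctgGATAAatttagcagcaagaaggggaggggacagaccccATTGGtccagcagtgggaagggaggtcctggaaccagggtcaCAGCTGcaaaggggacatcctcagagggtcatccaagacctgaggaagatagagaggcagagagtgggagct
Casq2 promoter, chr3:102086165-102086464, plus strand: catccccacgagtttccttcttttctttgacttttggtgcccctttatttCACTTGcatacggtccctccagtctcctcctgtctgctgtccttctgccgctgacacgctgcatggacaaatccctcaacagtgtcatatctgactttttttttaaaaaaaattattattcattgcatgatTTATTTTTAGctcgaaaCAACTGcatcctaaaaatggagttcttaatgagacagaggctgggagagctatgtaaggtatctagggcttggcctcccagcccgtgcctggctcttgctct
The Ryr2 promoter held 2 E-boxes. The Hrc promoter held 1 E-box, 1 CCAAT and 1 GATAA, and the Casq2 promoter 2 E-boxes and 1 MEF2 match. Of all 32851 promoters in the table, 72.3% held an E-box, 37.4% CCAAT, 25.4% GATAA and 3.19% the MEF2 motif. TATAAA and the CArG motif of serum response factor were searched as well, matched none of the 3 promoters, and are held by 13.6% and 1.63% of all promoters. G and C made up 65.3% of the Ryr2 promoter, 58.7% of that of Hrc and 44.7% of that of Casq2.

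The deposited values are log2(normalized read count + 1), and whole reads were recovered from them. Recovered totals ran from 6595465 reads in the normal control to 11545848 in the cancer exercise library. Globin genes, expressed by red cells, took 7.86% to 8.76% of the reads in 3 libraries and 37.3% in the cancer exercise library. The members together took 1.44%, 1.45%, 1.33% and 1.07% of the reads in E-&T-, E+&T-, E-&T+ and E+&T+, and 1.58%, 1.58%, 1.44% and 1.70% of the reads outside the globin genes. All 8 structural genes of the cardiomyocyte that were fixed as markers (such as Myh6 and Tnnt2) were abundant, with a summed level of 431864 to 473480 normalized reads per library. The 8 skeletal muscle markers summed to 101 to 190. The deposited normalization put the median difference over all genes between -0.012 and 0.002 (log2) in the 4 comparisons. Scaling to the recovered totals, globin reads included, moved that median to -0.59 for cancer exercise against cancer control, to -0.72 for cancer exercise against normal exercise and to -0.16 for cancer control against normal control. Differences below are on the deposited scale, and so relative to a median gene that did not move. In RNA from whole tissue, fewer cells of a type and less RNA per cell cannot be told apart.

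The gap between the highest and the lowest library, seen in the plot of levels by library, ran from 0.17 (log2) for Slc8a1 to 0.86 for Ryr2, with a median of 0.53 over the members. Among the 7077 genes that averaged 100 or more normalized reads (called abundant below), the median gap was 0.64, and 8 of the 10 members lay under it, with Ryr2 and Hrc (0.68) above. The cancer exercise library was the highest of the 4 for 5 members, and the cancer control library was the lowest for 6. How many of all genes have these orders, or part both cancer libraries from both normal ones, was not counted. Of the 30 steps between neighbours in the order of levels, 9 were within counting error, that is, the 95% interval of the step held 0.

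**Figure D1:**
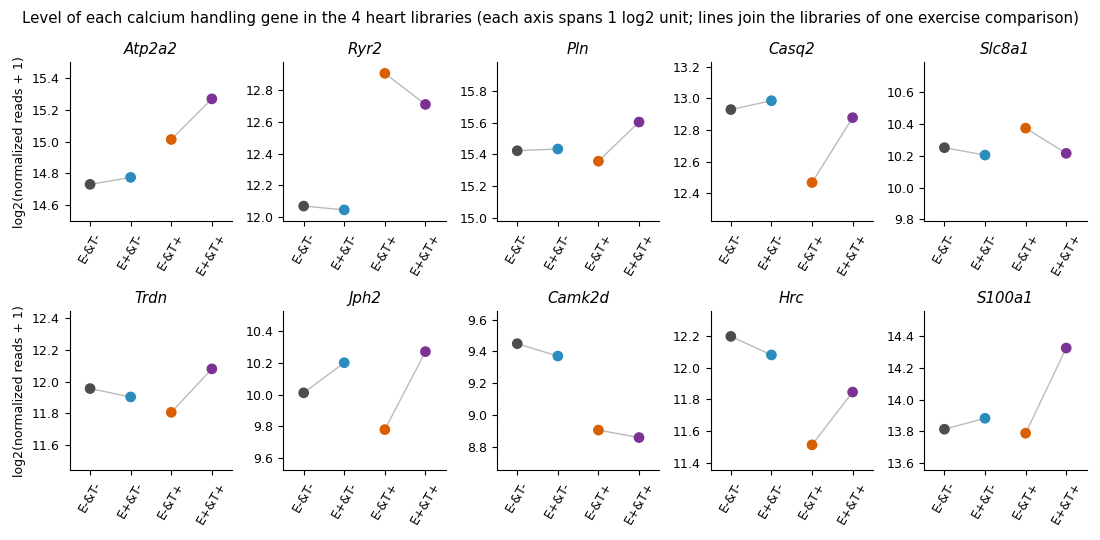
Deposited level, log2(normalized reads + 1), of each of the 10 members (vertical axis, 1 log2 unit in every panel) in the 4 heart libraries (horizontal axis, 1 point per library). Lines join the libraries of one exercise comparison. Ryr2 and Atp2a2 stood higher in both cancer libraries than in both normal ones, Camk2d and Hrc lower, and Casq2 dipped in the cancer control library alone. On this scale the median gene did not move.

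Atp2a2 and Pln, the pump and its inhibitor, were the most abundant members, with 23724 to 37514 and 38300 to 48908 reads per library. Atp2a2 stood at a level of 14.73 (log2) in the normal control, 14.78 in normal exercise, 15.01 in the cancer control and 15.27 in cancer exercise. Both cancer libraries thus lay above both normal libraries, and every step in this order was beyond counting error. The difference from the normal control was 0.04 with exercise (log2, 95% counting interval 0.02 to 0.07) and 0.28 with cancer (0.26 to 0.31). With exercise in cancer-bearing mice Atp2a2 was higher by a further 0.26 (0.24 to 0.28).

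Pln stood at 15.42, 15.43, 15.36 and 15.60 in the same order of libraries. The first 3 libraries lay within 0.08 of each other, and only the cancer exercise library stood above them. Its exercise difference was 0.01 in normal mice, with an interval of -0.01 to 0.03 that held 0, and 0.25 in cancer-bearing mice (0.23 to 0.27). Its cancer difference was -0.07 without exercise (-0.09 to -0.05) and 0.17 with exercise (0.15 to 0.19). Pump and inhibitor therefore did not move by the same amount with cancer.

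The reads of Pln per read of Atp2a2 within a library do not depend on how libraries are scaled. There were 1.61 in the normal control (95% Clopper-Pearson interval 1.59 to 1.64) and 1.58 in normal exercise (1.56 to 1.60). In the cancer control there were 1.27 (1.25 to 1.28) and in cancer exercise 1.26 (1.24 to 1.28). Both cancer libraries thus had a lower ratio than both normal ones. How many other pairs of genes part the libraries in this way was not counted. On the log2 scale the ratio differed by -0.35 between the unexercised libraries (-0.38 to -0.32) and by -0.33 between the exercised ones (-0.35 to -0.30). With exercise it differed by -0.03 in normal mice (-0.06 to -0.002) and by -0.01 in cancer-bearing mice, where the interval of -0.04 to 0.02 held 0.

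Ryr2, the release channel, showed the widest gap of all members. It stood at 12.07 (3748 reads) in the normal control, 12.05 (4671 reads) in normal exercise, 12.91 (8701 reads) in the cancer control and 12.71 (6126 reads) in cancer exercise. Both cancer libraries lay well above the normal ones, which did not differ beyond counting error. Cancer control against normal control gave a difference of 0.84 (0.78 to 0.89), a fold of 1.79. Cancer exercise against normal exercise gave 0.67 (0.61 to 0.72), a fold of 1.59, which turned to -0.05 under scaling to the recovered totals, where the median gene lay at -0.72. With exercise Ryr2 differed by -0.02 in normal mice (-0.09 to 0.04) and by -0.20 in cancer-bearing mice (-0.24 to -0.15).

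Hrc and Casq2, both calcium binding proteins of the SR lumen, went the other way from Ryr2 in the cancer control heart. Hrc stood at 12.20 in the normal control, 12.08 in normal exercise, 11.51 in the cancer control and 11.85 in cancer exercise, with 3315 to 4789 reads. The cancer libraries lay below both normal ones, the cancer control furthest. Its cancer difference was -0.68 without exercise (-0.75 to -0.62), a fold of 0.622, and -0.23 with exercise (-0.30 to -0.17). Its exercise difference was -0.12 in normal mice (-0.18 to -0.06) and 0.33 in cancer-bearing mice (0.26 to 0.40), so that the intervals lay on opposite sides of 0. Casq2 stood at 12.93, 12.99, 12.47 and 12.88. Here the cancer control library alone was low, and the other 3 lay within 0.11. Its cancer difference was -0.46 without exercise (-0.51 to -0.41) and -0.11 with exercise (-0.15 to -0.06), and its exercise difference in cancer-bearing mice was 0.41 (0.36 to 0.46).

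Trdn and Jph2, which hold the release unit together, had gaps between the highest and the lowest library of 0.27 and 0.49, against 0.52 for Casq2. Trdn stood at 11.96, 11.90, 11.81 and 12.08, with the cancer control lowest and cancer exercise highest. Its differences ran from -0.15 with cancer in unexercised mice (-0.22 to -0.08) to 0.27 with exercise in cancer-bearing mice (0.21 to 0.34). Of all pairs of members, Trdn and Pln had the most alike pattern over the 4 libraries, with a root mean square difference of 0.031 (log2, each gene centred on its own mean). Jph2 stood at 10.01, 10.20, 9.78 and 10.27. The exercised library was the higher one in both pairs. Its exercise difference of 0.19 (0.07 to 0.31) was the largest of any member in normal mice, and with tumors present it was 0.49 (0.37 to 0.62).

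Slc8a1, the exchanger, stood at 10.25, 10.21, 10.38 and 10.22, with 1063 to 1505 reads, the flattest pattern of the 10. Only the cancer control library stood apart beyond counting error, by 0.12 above the normal control (0.01 to 0.24), and this difference changed sign under scaling to the recovered totals and where globin genes were left out of the scaling. Exercise in cancer-bearing mice gave -0.16 (-0.27 to -0.05).

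Camk2d was the least abundant member, with 423 to 731 reads. It stood at 9.45 in the normal control, 9.37 in normal exercise, 8.90 in the cancer control and 8.86 in cancer exercise. Both cancer libraries lay below both normal ones, by 0.55 without exercise (interval of the difference -0.72 to -0.38) and by 0.51 with it (-0.69 to -0.34), while exercised and unexercised libraries did not differ beyond counting error. S100a1 stood at 13.81, 13.88, 13.79 and 14.33, and cancer exercise alone stood high. Its exercise difference was 0.07 in normal mice (0.04 to 0.10) and 0.54 in cancer-bearing mice (0.51 to 0.57), a fold of 1.45. Its cancer difference held 0 without exercise (-0.03, with an interval of -0.06 to 0.01) and was 0.44 with exercise (0.41 to 0.47).

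The first comparison asked what exercise does in the heart of normal mice. None of the members passed 1.5-fold in either direction, while 24.8% of the 13937 genes tested did. A gene was tested where at least 1 of the 2 libraries had 4 normalized reads. The 2-fold threshold of the study's methods was passed by 12.3% of genes and no member. Counting noise is smaller for abundant genes, and 7.49% of the 7077 abundant genes passed 1.5-fold. The members ran from -0.12 (Hrc) to 0.19 (Jph2), with a median of -0.01, where the median gene stood at 0.002. The intervals lay above 0 for 4 members, below 0 for 1 and held 0 for 5. Markers of other cell types differed here as well. Those of smooth muscle summed to 6004 normalized reads against 2098, all 4 past 2-fold higher. Adipocyte markers summed to 272 against 1231, all 5 past 2-fold lower. Those of lung epithelium summed to 148 against 582, all 4 past 1.5-fold lower. Their part in the levels of the members was not tested.

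In cancer-bearing mice, the exercised heart had 7 members at higher and 3 at lower levels, with a median of 0.27 where the median gene stood at -0.01. S100a1, Jph2, Casq2 and Hrc led, Trdn, Atp2a2 and Pln lay between 0.25 and 0.27, and Ryr2, Slc8a1 and Camk2d were at -0.20, -0.16 and -0.05. No member passed 1.5-fold or 2-fold. Of 14363 genes tested, 37.0% passed 1.5-fold and 19.4% passed 2-fold, and of the abundant genes 19.7% passed 1.5-fold. Under scaling to the recovered totals all 10 members were lower in the exercised heart. Such scaling shifts all genes by about the same amount, so 7 of 10 members lay above the median gene either way. The structural markers of the cardiomyocyte had a median difference of 0.11, with 6 of 8 higher, and relative to that median S100a1 was at 0.43, Jph2 at 0.39 and Ryr2 at -0.30.

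Libraries of this comparison also differed in other cell types. The 7 erythroid markers were all past 2-fold higher in cancer exercise, and their summed level was 3.59342e+06 normalized reads against 522624 in the cancer control. The 4 atrial markers tested were likewise all past 2-fold higher, with a sum of 28877 against 8867. Bmp10, the fifth, was at 0 in normal exercise and the cancer control. The 7 fibroblast markers summed to 33513 against 56906 and 5 were past 1.5-fold lower. Macrophage markers summed to 3236 against 5389, with 5 of 6 past 1.5-fold lower. Adipocyte markers summed to 779 against 89.1, all 5 past 2-fold higher, and those of lung epithelium to 1721 against 503, all 4 past 1.5-fold higher. The part of these differences in the levels of the members was not tested.

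Without exercise, the cancer-bearing heart was the comparison with the widest spread of the members. They ran from -0.68 (Hrc) to 0.84 (Ryr2), with 3 higher, 7 lower and a median of -0.11 where the median gene stood at -0.01. Ryr2 passed 1.5-fold higher and Hrc 1.5-fold lower, 1 of 10 in each direction, against 24.0% of 14317 genes higher and 23.7% lower (47.7% in all). Among the abundant genes 34.9% passed 1.5-fold, and 27.6% of all genes but no member passed 2-fold. The 8 structural markers spread as widely, from -0.85 to 0.67 with a median of 0.06. Relative to that median Ryr2 was at 0.78, Hrc at -0.74, Camk2d at -0.61 and Casq2 at -0.52. Camk2d and Casq2 also passed 1.5-fold lower under scaling to the recovered totals, so that 4 members passed, where 49.8% of all genes did.

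In the same comparison fibroblast markers summed to 56906 normalized reads in the cancer control against 26665 in the normal control, with 6 of 7 past 1.5-fold higher. Macrophage markers summed to 5389 against 2518 and neutrophil markers to 2913 against 112, with 4 of 6 and 5 of 5 past 1.5-fold higher. Endothelial markers summed to 17036 against 25793, with 3 of 6 past 1.5-fold lower, while Pecam1 (0.55) and Cldn5 (0.08) were higher. Adipocyte markers summed to 89.1 against 1231, all 5 past 2-fold lower. Smooth muscle markers summed to 4606 against 2098, all 4 past 1.5-fold higher. Atrial markers summed to 8867 against 14776, with 2 of 5 past 1.5-fold lower and Sln higher at 0.27. The part of these differences in the levels of the members was not tested.

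With exercise, cancer-bearing against normal, the members ran from -0.51 (Camk2d) to 0.67 (Ryr2), with 7 higher and 3 lower and a median of 0.12 where the median gene stood at -0.01. Ryr2 alone passed 1.5-fold, higher, against 20.8% of 14289 genes higher and 21.6% lower (42.4% in all), and against 26.6% of the abundant genes. The 2-fold threshold was passed by 23.0% of genes and no member. Atp2a2 at 0.50 and S100a1 at 0.44 followed Ryr2, and the intervals of Jph2 (0.07) and Slc8a1 (0.01) held 0. Where globin genes were left out of the scaling, Ryr2 no longer passed 1.5-fold, Camk2d passed it at -0.69, and 4 members were higher instead of 7. Under scaling to the recovered totals 0 of 10 members were higher and 5 passed 1.5-fold lower (67.8% of all genes passed it in either direction), with Atp2a2 at -0.22 and S100a1 at -0.28. Either scaling shifts all genes by about the same amount, so the count of 7 members above the median gene could hardly change. The erythroid and neutrophil markers differed here too, with all 7 and all 5 past 2-fold higher in the cancer exercise library. So did those of lung epithelium (4 of 4 past 2-fold higher, sums of 1721 and 148) and adipocytes (4 of 5 past 1.5-fold higher, 779 and 272). Of the 7 fibroblast markers, Col1a1, Col1a2 and Col3a1 were past 2-fold lower. Lum, Pdgfra and Dpt were lower by at most 0.38, Dcn was higher by 0.39, and the sum was 33513 against 32155. The part of all these in the members' levels was not tested.

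**Figure D2:**
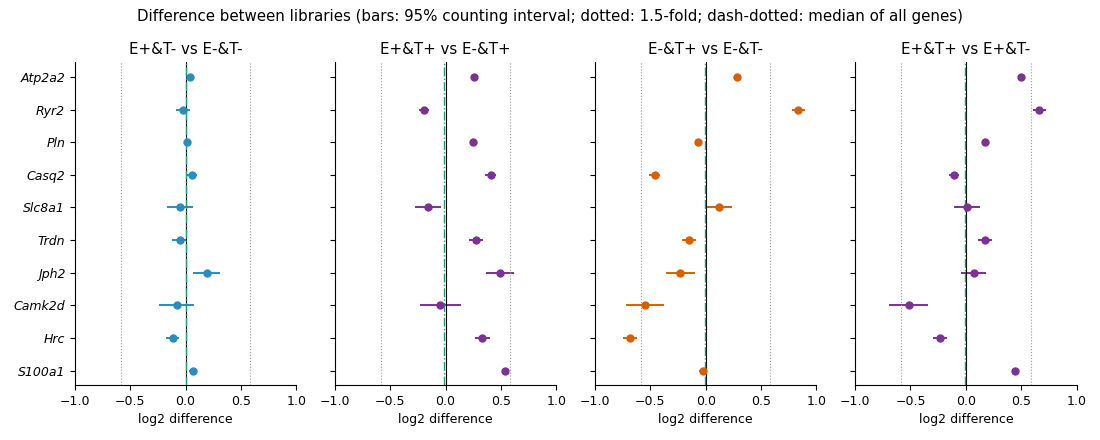
Log2 difference of each member between the 2 libraries of each comparison (horizontal axis, deposited scale), with bars for the 95% counting interval. Dotted lines mark 1.5-fold and the dash-dotted line the median of all genes tested. Ryr2 lies past 1.5-fold in both cancer comparisons and Hrc in that without exercise, and no member does in the exercise comparisons. Under scaling to the recovered totals, points in both panels with the cancer exercise library move left by about the shift of the median gene.

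The 2 exercise comparisons share no library, and their differences can be set side by side. The exercise difference was larger in cancer-bearing than in normal mice, with an interval above 0, for 7 members, and the median over the members was 0.27 (log2), where the abundant genes had 0.02. S100a1 had 0.47 (0.42 to 0.51), Hrc 0.45 (0.36 to 0.54), Casq2 0.35 (0.29 to 0.42) and Trdn 0.33 (0.24 to 0.42). Ryr2 was the 1 member with an interval below 0, at -0.17 (-0.25 to -0.09), and the intervals of Slc8a1 and Camk2d held 0. No member reached 1.5-fold here, against 26.3% of the abundant genes. The share of all genes with an interval above 0 was not counted. Of the structural markers, Myh6, Actc1, Mybpc3, Tnni3 and Myl2 also had a larger exercise difference in cancer-bearing mice, and Tnnt2, Tnnc1 and Myl3 a smaller one. Myh6 was at -0.165 in normal and 0.281 in cancer-bearing mice, and Tnnt2 at -0.038 and -0.214. The shift was thus not particular to the members. Scaling to the recovered totals moved every member below 0, since the median of the abundant genes then lay at -0.54.

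Ratios to Atp2a2 within a library are free of these shifts. Relative to the pump, 8 of the 9 other members were lower and Ryr2 was higher with cancer, both without and with exercise, and none of these intervals held 0. Each of these ratios carries the higher level of Atp2a2 itself. The cancer difference of Atp2a2 exceeded that of 68.2% of the abundant genes without exercise and of 82.6% with it. Most abundant genes were thus lower relative to the pump as well. Hrc had 0.173 reads per Atp2a2 read in the normal control and 0.155 in normal exercise, but 0.088 in the cancer control and 0.093 in cancer exercise. Casq2 had 0.287, 0.289, 0.171 and 0.191, and Camk2d 0.0257, 0.0236, 0.0144 and 0.0117. For all 3 of these genes both cancer libraries lay below both normal ones, and how many of all genes do so was not counted. Ryr2 had 0.158 and 0.151 in the normal libraries, 0.232 in the cancer control and 0.170 in cancer exercise. S100a1 had 0.529, 0.538, 0.427 and 0.519, with the cancer control lowest.

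**Figure D3:**
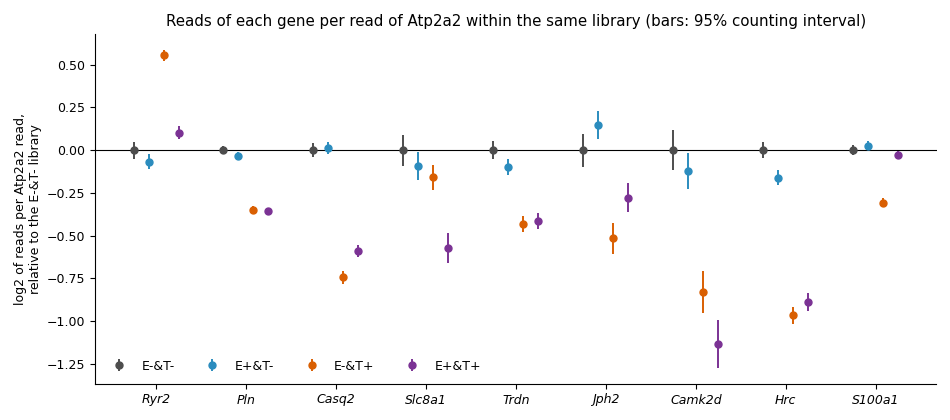
Reads of each member per read of Atp2a2 in the same library, as log2 relative to the normal control library (vertical axis, log2), for the 4 libraries (colors). Bars are 95% counting intervals of the ratio in that library. Of the 9 members, 8 lie below 0 in both cancer libraries and Ryr2 lies above 0 in both. In both cancer comparisons most abundant genes also had a smaller difference than Atp2a2.

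The other genes of calcium handling were described from lists by role with 102 genes in all, of which 99 were found and 93 were tested in each comparison. Past 1.5-fold, 10 were higher and 11 lower with exercise in normal mice (22.6% of the 93, against 24.8% of all genes), and 17 and 14 with exercise in cancer-bearing mice (33.3%, against 37.0%). With cancer, 20 were higher and 15 lower without exercise (37.6%, against 47.7%), and 20 and 13 with exercise (35.5%, against 42.4%). These shares were close to or below those of all genes. The medians of the 93 genes were 0.05, 0.10, 0.07 and 0.01 (log2).

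Among the 7 tested genes of SR uptake, Sln stood out, which encodes sarcolipin, the atrial counterpart of phospholamban. It had 434 reads in the normal control, 1401 in normal exercise, 680 in the cancer control and 4478 in cancer exercise. Both exercised libraries were thus higher than both unexercised ones, by 1.35 in normal mice (1.19 to 1.51) and by 3.03 in cancer-bearing mice (2.91 to 3.15). Sln is also one of the 5 atrial markers. Myl7, an atrial myosin light chain, was higher with exercise by 1.20 in normal (1.07 to 1.33) and by 1.73 in cancer-bearing mice (1.61 to 1.85), and Myl4, another one, by 0.99 and 2.32. Nppa, an atrial natriuretic peptide gene, was at 0.15 and 1.43, and Bmp10 had 6 reads in the normal control and 0 in normal exercise. The amount of atrial tissue in a library and the level of Sln in a cell were not told apart. Calr, encoding the calcium binding chaperone calreticulin, was higher by 0.74 (0.65 to 0.82) in normal exercise and lower by 1.04 in cancer exercise against normal exercise (interval of the difference -1.13 to -0.95).

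Of the 12 tested genes of the SR release unit, 2 were past 1.5-fold higher and 5 lower in the cancer control against the normal control, where 24.0% and 23.7% of all genes were. Asph, whose locus also encodes the triadin relative junctin, stood at 11.92, 12.21, 10.91 and 11.62, so that it was lowest in the cancer control as Casq2, Trdn and Hrc were. Its cancer difference was -1.01 without exercise (-1.09 to -0.93), and its exercise difference in cancer-bearing mice 0.71 (0.63 to 0.79). Fkbp1b, which encodes the FKBP12.6 subunit bound to the cardiac release channel, had 16 and 15 reads in the normal libraries, 87 in the cancer control and 34 in cancer exercise, which gave 2.0 with cancer without exercise (1.29 to 2.93). Tmem38b, a counter-ion channel of the SR, was higher with cancer by 1.21 (0.78 to 1.69) and by 1.28 (0.85 to 1.75). Itpr1, an inositol trisphosphate receptor, was at -0.91 (-1.25 to -0.58) and -1.24 (-1.59 to -0.91) in the same comparisons.

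Among the 7 tested genes of the dyad and T-tubule, Tcap and Cav3 were past 1.5-fold higher with cancer both without and with exercise, and none was lower. Tcap, encoding the Z-disc protein telethonin, had 4078 and 2762 reads in the normal libraries and 15739 and 9573 in the cancer libraries, with differences of 1.57 (1.52 to 1.62) and 2.07 (2.01 to 2.13). Cav3, the muscle caveolin, differed by 1.49 (1.35 to 1.64) and 0.82 (0.68 to 0.96). Jph2, a member, was at -0.23 and 0.07 in these comparisons.

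The L-type channel list held 10 tested genes, among them the small GTPases of the RGK family, which inhibit the channel. Rem1 had 163 reads in the normal control, 108 in normal exercise, 57 in the cancer control and 11 in cancer exercise, and differed by -1.87 with cancer without exercise (-2.36 to -1.45) and by -2.90 with exercise (-4.07 to -2.13). Rrad was highest where Rem1 was lowest, with 388, 406, 457 and 938 reads, a difference of 1.35 with exercise in cancer-bearing mice (1.18 to 1.51). The pore subunit Cacna1c was not past 1.5-fold in any comparison.

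Of 13 tested genes for extrusion, the sodium pump and store-operated entry, 1 to 3 were higher and 0 to 2 lower past 1.5-fold in any comparison. Atp1b1, the beta subunit of the sodium pump, was higher with cancer by 0.72 without exercise (0.65 to 0.78) and by 0.74 with it (0.68 to 0.80). Slc8a1 itself stayed within 0.16 in all 4 comparisons.

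The CaMKII genes went the same way as the member Camk2d in the cancer hearts. Camk2a had 251 and 300 reads in the normal libraries and 133 and 57 in the cancer libraries. Camk2b had 69, 84, 28 and 30 in the same order, and Camk2g, which was named after its values were seen, 138, 131, 122 and 61. All 4 genes of the family were lower with cancer, by 0.55 to 1.65 without exercise and by 0.51 to 2.10 with exercise. All 4 were lower under every scaling tried. In these comparisons the scalings put the median gene between -0.72 and 0.01, so none could have turned these genes higher. On the deposited scale 2 of the 4 passed 1.5-fold lower without exercise and 3 with exercise, where 23.7% and 21.6% of all genes did.

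Among the 26 genes for calmodulin, kinases and phosphatases, Rcan1, a target and inhibitor of calcineurin, was higher with exercise in normal mice by 1.21 (1.09 to 1.33) and with cancer in unexercised mice by 1.48 (1.36 to 1.60). Its reads were 742, 2175, 2694 and 1240. Pde4b, a cAMP phosphodiesterase, had 519, 652, 1101 and 1939 reads, and differed by 1.13 with exercise in cancer-bearing mice (1.02 to 1.23) and by 1.85 with cancer in exercised mice (1.72 to 1.98). Ppp1r2, an inhibitor of protein phosphatase 1, had 363, 563, 1003 and 458 reads. It was highest in the cancer control, by 1.09 over the normal control (0.91 to 1.27).

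In the list of mitochondrial calcium, Mcu, the pore of the uniporter, was at -0.81 in the cancer control against the normal control (-0.99 to -0.62), while Mcub, its inhibitory paralog, had only 12 and 57 reads in these libraries and was at 1.79 (0.96 to 2.90). Micu3, a regulator of the uniporter, had 127 and 98 reads in the normal libraries and 79 and 44 in the cancer libraries, with differences of -1.05 without exercise (-1.49 to -0.65) and -0.86 with it (-1.43 to -0.35).

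Of 9 other S100 genes, 6 were past 1.5-fold higher in the cancer control (24.0% of all genes were) and 1 lower, while S100a1 was at -0.03, S100a16 at 0.20 and S100a13 at 0.27. S100a4 and S100a6, abundant in fibroblasts and leukocytes, were higher there by 3.90 (3.73 to 4.08) and 2.27 (2.18 to 2.35). S100a8 and S100a9 also serve as the neutrophil markers and were higher by 4.82 and 4.55. In the exercised cancer-bearing heart S100a4 was lower than in the cancer control (-2.17, interval -2.27 to -2.07), where S100a1 was higher.

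**Figure D4:**
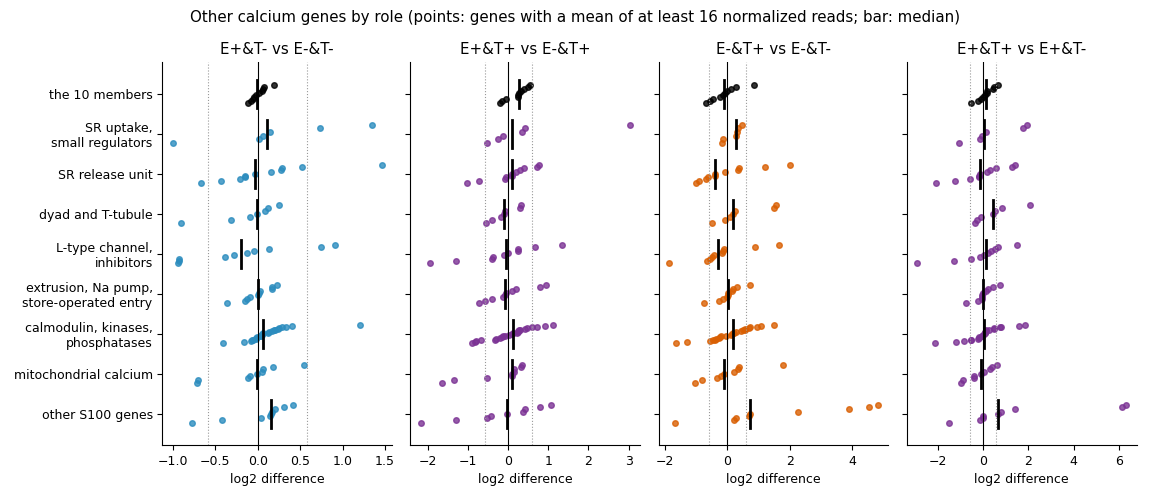
Log2 differences (horizontal axis, deposited scale; a different range in each panel) of the members (black) and of other calcium genes by role (rows), for genes that averaged 16 or more normalized reads. Each point is a gene, the bar is the median of the row and dotted lines mark 1.5-fold. The members run from -0.68 to 0.84 in the cancer control against the normal control, where S100a8 reaches 4.82.

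The patterns most like those of 4 members were looked for over the 4 libraries among the 7077 abundant genes, by the root mean square difference of centred log2 levels. For Atp2a2 the nearest were Mllt3 (0.014), Naa50 (0.016) and Ythdc1 (0.019). For Ryr2 they were B3gntl1 (0.017), Ctsd (0.020) and Rps14 (0.020), for Pln Zmpste24 (0.007), Scamp3 (0.010) and Rnf187 (0.012), and for Hrc Zfp655 (0.012), Fmn1 (0.021) and Hamp2 (0.024). The nearest member stood at rank 26 for Pln (Trdn), 307 for Hrc (Casq2, 0.110), 659 for Atp2a2 (S100a1, 0.134) and 1166 for Ryr2 (Atp2a2, 0.243). With 4 points per gene, many genes come close to any one pattern.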

How the data were processed

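QuantSeq 3′ mRNA-seq libraries of mouse heart, 1 for each of 4 groups, were analysed. Alignment by the authors was with Bowtie2 on mm10, read counts per gene came from bedtools, and a quantile method of edgeR normalized them. Tool versions are not given in the sources used here. The values the authors deposited are log2 values of these normalized counts plus a pseudocount of 1. Whole reads were recovered by inverting the quantile adjustment at a fitted common dispersion of 0.149, and all values of the 17174 genes with reads were given back within 0.0006. On simulated reads of 16824 genes, 97.7% of read numbers were recovered exactly, and 100% of those under 1000 reads. Larger read numbers, which most members have, were thus not all exact. Differences are of deposited values. For each ratio of recovered reads a 95% Clopper-Pearson interval is given, and for ratio changes and differences of differences a normal approximation on log counts. Both cover counting error only, and both treat each read as an independent molecule, which PCR copies are not. Differences past 1.5-fold or 2-fold were counted for genes with at least 4 normalized reads in at least 1 of the 2 libraries. The methods give the 2-fold threshold and the read count of 4, while the way the minimum is applied and the 1.5-fold threshold were chosen here. With 1 library per group there is no test.

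The members and the lists were chosen with earlier results of these data known. Of the lists, up to 4 genes per list and comparison were eligible to be named, those with the largest difference past 1.5-fold and a mean of at least 16 normalized reads, besides genes said to be named after their values were seen, and atrial markers, S100a13, S100a16 and Cacna1c, which were named likewise. Some eligible genes were left out of the text. Markers of smooth muscle summed to 2098 to 6004 normalized reads per library and those of lung epithelium to 148 to 1721. Alternatives covered the scaling, the pseudocount, the minimum, the depth, the fold and duplicated symbols. Python 3.11.15 was used with pandas 2.3.3, numpy 2.4.6, matplotlib 3.10.9 and scipy 1.17.1.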

Additional observations from a re-analysis of the deposited data

Results flagged for a closer look

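The exercise difference of Hrc had opposite directions in normal and cancer-bearing mice, with counting intervals on opposite sides of 0 (-0.12 and 0.33, log2), and differed by 0.45. The difference between them was not tested, since each group has 1 library. Under scaling to the recovered totals both exercise differences were negative, at -0.14 and -0.25, and differed by -0.12, where the median of the abundant genes lay at -0.54. Under the other scalings of the reads the difference ran from 0.43 to 0.45.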

How the results depend on the processing

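With 1 library per group, leaving out a replicate was not possible. No paired analysis was possible because each group has 1 library. Scaling to the recovered totals moved the median over the members to -0.32 for cancer exercise against cancer control, -0.26 for cancer control against normal control and -0.60 for cancer exercise against normal exercise, with 3, 4 and 5 members past 1.5-fold, and turned the Ryr2 difference of cancer exercise against normal exercise to -0.05. Under it 57.7% and 67.8% of all genes passed 1.5-fold in the comparisons with the cancer exercise library. Without globin genes in the scaling the medians were -0.28 for cancer control against normal control, with 4 members past the fold, and -0.05 for cancer exercise against normal exercise. Without genes over 1% of a library they were 0.20 for cancer exercise against cancer control, -0.26 with 4 members past the fold for cancer control against normal control, and -0.05 for cancer exercise against normal exercise. Centred on the cardiomyocyte markers they were 0.16 and 0.04 in the comparisons with the cancer exercise library. With 2-fold in place of 1.5-fold, 0 members passed in both cancer comparisons. Among the abundant genes (100 or more normalized reads on average), 7.5%, 19.7% and 26.6% passed 1.5-fold in normal exercise, cancer exercise against cancer control and cancer exercise against normal exercise. Above the median gene stood 7 of 10 members under each scaling in the comparisons with the cancer exercise library (8 in a subsample of reads for cancer exercise against cancer control), and 3 of 10 in cancer control against normal control. A scaling shifts all genes of a comparison by about the same amount, so these counts could hardly change with it. Of 320 single gene values under alternatives, 218 moved by less than their counting interval, 101 moved by more and 1, the Ryr2 difference above, was past 1.5-fold and changed sign.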
